A study of Mus musculus with 4 samples.

Results

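Fibronectin, the integrins, the laminins, the matrix collagens and 3 cadherins were examined in the node region of mouse embryos that carry GFP in the Noto gene. Noto is a homeobox transcription factor of the node and notochord. The set has 40 genes, taken by symbol: 22 of the extracellular matrix, 15 integrin chains and 3 cadherins. A probe belonged to a gene if its name in the scanner files, or the current symbol of its accession, was that of the gene. By this rule 39 of the 40 genes had a probe, with 90 probes in all out of the 41174 on the array. A probe counted as measured if, on each array, its spots stood well above background for 1 genotype or both, which left 66 probes of 37 genes, among 18608 measured genes in the series. Itga2 and Lama2 had only dim probes, and no probe matched Hspg2.

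The embryos were at the early headfold stage, about E7.75, of the NotoGFP strain on a mixed Sv129/CD-1 background. Heterozygotes (Noto GFP/+) served as controls and carry 1 GFP allele themselves. Homozygotes (Noto GFP/GFP) carry GFP on both alleles, and no wild-type embryos were among the samples. Distal pieces with the ventral node, from 120 to 150 embryos a pool, were collected, and the labels differ on how much of the embryo the piece held. Each genotype was represented by 1 RNA pool, and both pools were hybridised together on 2 Agilent 2-colour arrays with exchanged dyes, so the 4 samples are 2 technical replicates of each genotype. The homozygote carried Cy5 on array 1 and Cy3 on array 2.

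Fibronectin, laminins, collagens and nidogens form the fibres and basement membranes on which the cells of the gastrulating embryo sit and migrate. Integrins are cell surface receptors of 1 alpha and 1 beta chain that bind these proteins and couple them to the actin cytoskeleton. Cadherins join cells to each other, and epithelial and mesenchymal cells of the early embryo carry different ones.

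Each ratio sets the homozygote over the heterozygote on a log2 scale and is given as the mean ± SD over the 2 arrays. The SD is technical, since 1 pool per genotype leaves no biological replicate and hence nothing to test, and no p-values are printed. A gene takes the value of its brightest measured probe. It is called higher or lower if both arrays read at least 1.5-fold, a log2 ratio of 0.58, the same way. A weaker rule with a limit of 1.2-fold, or 0.26, is given beside it. Levels in single samples are normalized log2 intensities of 1 probe and are set only against the same probe in the other samples.

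Matrix genes were mostly slightly above 0, integrins lay on both sides of 0, and single genes stood out in both classes. Fn1, the fibronectin gene, read 0.54 ± 0.07 and Itga1, the integrin alpha 1 chain of collagen and laminin receptors, read 0.58 ± 0.06. Itga4, the alpha 4 chain of fibronectin and VCAM1 receptors, was lower at -0.83 ± 0.02. It was the only member called at 1.5-fold, and 0 members were called higher. Among all measured genes, 2.35% were called lower and 0.0591% higher by this rule. At 1.2-fold, Fn1 and Itga1 were higher and Itga4, Itgb3 and Itgb4 lower, where the share of all measured genes was 2.19% higher and 8.27% lower. With each array centred on its median in place of loess, 2 were higher and 1 lower, against 1.99% and 7.60% of all measured genes. Ratios above 0 on both arrays were read for 21 of the 37 genes and below 0 on both for 7, against 25.7% and 34.0% of all measured genes. All measured genes include probes kept under their listed names. With probes of RefSeq transcripts only, a limit added after seeing the data, 14729 genes were left. Of these, 1.42% were called lower and 0.0475% higher, and 5.77% and 2.25% passed 1.2-fold. Of all measured probes with a RefSeq transcript, 32.1% read above 0 on both arrays and 27.0% below. In pooled tissue, fewer cells of a type and less RNA per cell cannot be told apart.

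**Figure D1:**
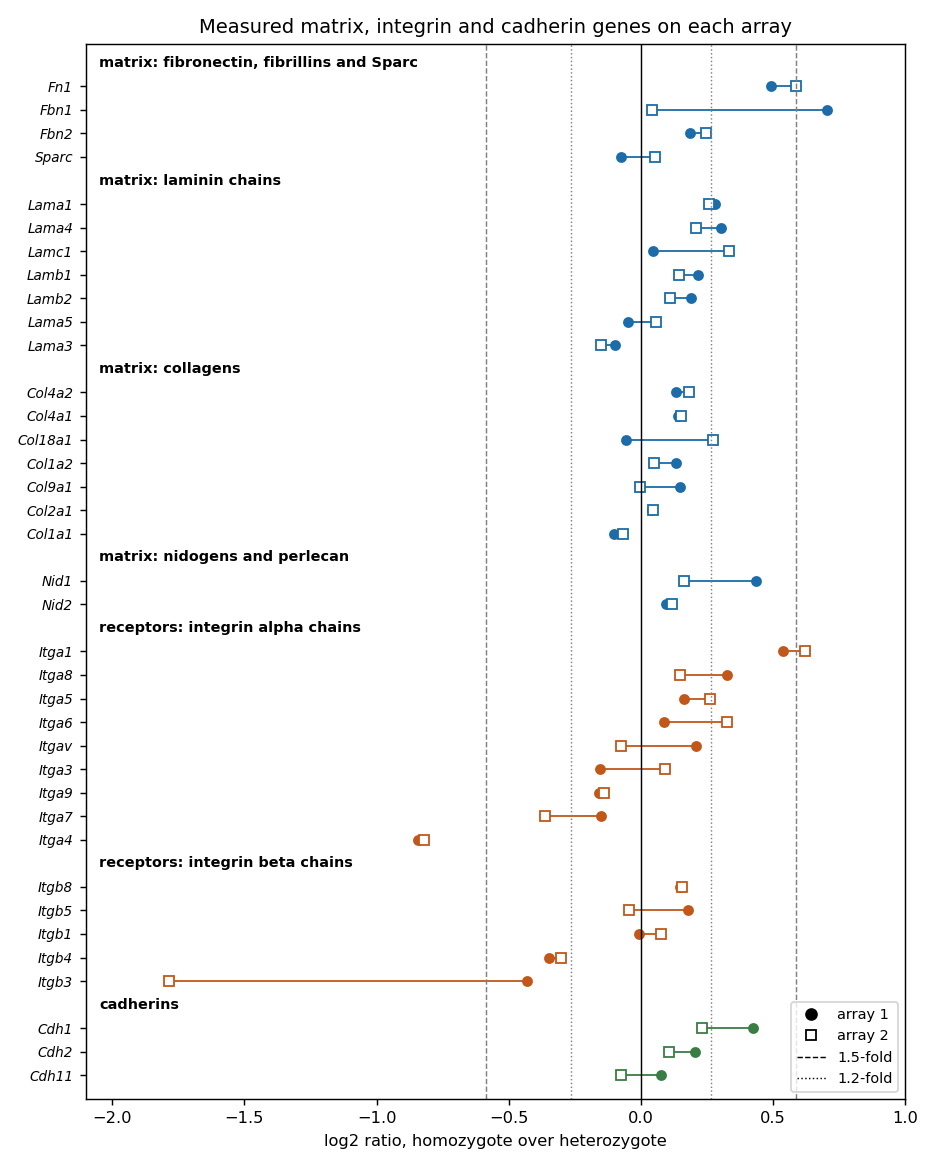
Log2 ratio of homozygote over heterozygote (horizontal axis) for the brightest measured probe of each of the 37 measured genes, grouped by role, with filled circles for array 1 and open squares for array 2 and dashed and dotted lines at 1.5-fold and 1.2-fold. Most matrix genes lie between 0 and 0.3, Fn1 and Itga1 lie near 0.5 to 0.6 on both arrays, and Itga4 lies beyond -0.8 on both.

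Fn1 was measured by 4 probes, all on chromosome 1, minus strand, in build mm8. Their sequences are given since the probes disagree in direction. They are written 5′ to 3′ as in the scanner files, in the order of the transcript, with no base singled out by capitals.
Fn1 probe 1, chr1:71560522-71561280: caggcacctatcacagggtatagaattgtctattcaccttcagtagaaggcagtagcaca
Fn1 probe 2, chr1:71537324-71537383: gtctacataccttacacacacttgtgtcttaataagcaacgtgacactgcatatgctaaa
Fn1 probe 3, chr1:71530761-71530820: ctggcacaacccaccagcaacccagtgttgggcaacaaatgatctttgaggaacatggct
Fn1 probe 4, chr1:71524056-71526293: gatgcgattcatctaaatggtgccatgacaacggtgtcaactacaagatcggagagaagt

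Probes 1 and 4 are each 60 bases long but span 759 and 2238 bases of the genome, so both cross at least 1 intron. Probes 1, 3 and 4 are listed with a RefSeq transcript. Probe 2 is listed with a clone accession and no RefSeq transcript, is colinear with the genome over its 60 bases and has the lowest GC content of the 4, at 38.3%. Which exon or untranslated region each covers was not examined, since no annotation of this build was used.

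Probe 4 was the brightest and stands for the gene. Its level was 13.96 and 14.38 in the heterozygote samples of arrays 1 and 2, and 14.45 and 14.97 in the homozygote samples, so both homozygote samples lay above both heterozygote samples. The ratio was 0.49 on array 1, short of 1.5-fold, and 0.59 on array 2. This probe is printed in 10 spots per array. On array 1 its spots ranged from 0.12 to 0.60 with an SD of 0.14, and on array 2 the 9 spots used ranged from 0.55 to 0.63 with an SD of 0.03, all above 0. Of all measured genes, 57, or 0.306%, had a higher mean ratio than Fn1.

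Probe 3 read 10.92 and 11.98 in the heterozygote samples and 11.68 and 12.63 in the homozygote samples. Between the arrays the genotypes overlapped, but within each array the homozygote was brighter, by 0.76 and 0.65, or 0.71 ± 0.08. Probe 1 read 8.12 and 7.80 in the heterozygote and 8.78 and 8.39 in the homozygote, a ratio of 0.62 ± 0.05 with no overlap. Probes 1 and 3 thus passed 1.5-fold on each array where the brightest did not.

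Probe 2 went the other way. It read 13.22 and 13.10 in the heterozygote samples and 12.65 and 12.14 in the homozygote samples, with ratios of -0.57 and -0.97, or -0.77 ± 0.28, and no overlap. The mean of the 4 probes put Fn1 at 0.28. The 3 probes of RefSeq transcripts, probes 1 and 4 split over introns among them, therefore read above 0 and the clone probe below 0 on both arrays. What transcript the clone probe detects was not tested.

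**Figure D2:**
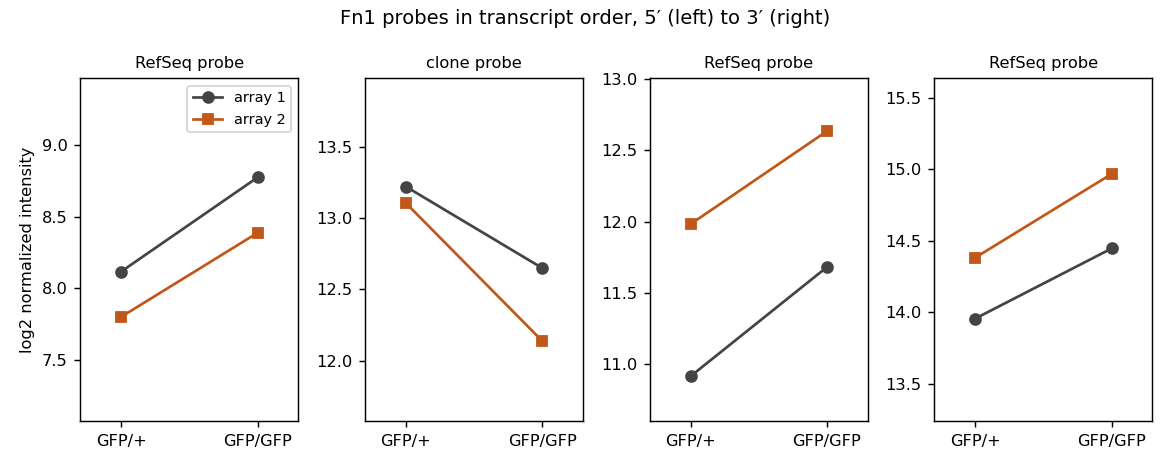
Normalized log2 intensity (vertical axis, each panel on its own range of equal height) of the 4 Fn1 probes in Noto GFP/+ and Noto GFP/GFP, in transcript order from 5′ to 3′, with circles for array 1 and squares for array 2 and lines joining the genotypes of 1 array. The 3 probes of RefSeq transcripts lie higher in the homozygote on each array and the clone probe lower, going from 13.22 to 12.65 and from 13.10 to 12.14.

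Among the other fibrous and matricellular genes, Fbn1 and Fbn2 encode the fibrillins of microfibrils and Sparc encodes a collagen-binding protein. Fbn1 read 0.37 ± 0.47, and its 2 arrays differed, at 0.70 and 0.04. Its samples were 9.02 and 9.60 in the heterozygote and 9.72 and 9.64 in the homozygote. A second, dimmer Fbn1 probe was steadier, at 0.32 and 0.38, so both probes lay above 0 while the size on the brightest rests on array 1. Fbn2 read 0.22 ± 0.04. Sparc read -0.01 ± 0.09, with opposite signs on the arrays.

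Laminins are trimers of an alpha, a beta and a gamma chain. Of the 7 measured chains, 5 read above 0 on both arrays and 1 below, with a median of 0.18, and none passed 1.2-fold on both arrays. Lama1, the alpha 1 chain of the early embryonic basement membrane, read 0.27 ± 0.02. Its levels were 10.48 and 10.85 in the heterozygote and 10.76 and 11.10 in the homozygote, which overlap between arrays. A second Lama1 probe, listed with no RefSeq transcript, read -0.47 and -0.17, and the mean of both probes was -0.03, so the direction of Lama1 holds for its brightest probe only. Lama4, an alpha chain of vascular and mesenchymal basement membranes, read 0.25 ± 0.07 by a probe with levels of 9.03 and 8.99 in the heterozygote against 9.33 and 9.20 in the homozygote. Its other measured probes read 0.37 and 0.39, and the 3 mean ratios thus all lay above 0. One of these shares 29 bases with the brightest.

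The chains common to most embryonic laminins were close together. Lamb1, a beta chain, read 0.18 ± 0.05. Lamc1, the widely used gamma chain, read 0.19 ± 0.20, from 0.04 on array 1 to 0.33 on array 2. Lamb2, the other beta chain measured, read 0.15 ± 0.06. Lama5, an alpha chain of epithelial basement membranes, had arrays of opposite sign and read 0.00 ± 0.07. Lama3, an alpha chain of skin-type laminin, was the 1 laminin below 0 on both arrays, at -0.13 ± 0.04. It was also the only one of the 37 measured genes not well above background in every genotype on both arrays, and its second probe read 0.00.

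Collagens stayed nearer to 0, with a median of 0.09 over 7 genes and a range from -0.09 to 0.16. Col4a1 and Col4a2 encode the chains of the main basement membrane collagen and are neighbours in the genome. Col4a1 read 0.15 ± 0.01 and Col4a2 0.16 ± 0.03, and a second probe of each read 0.21 and 0.23, so the 4 probes agreed in direction on both arrays. Levels of Col4a1 were 13.86 and 13.72 in the heterozygote and 14.00 and 13.87 in the homozygote, just apart. Col18a1, a basement membrane collagen with heparan sulfate chains, read 0.11 ± 0.23 with arrays of opposite sign. Col1a1 and Col1a2, the chains of fibrillar type I collagen, read -0.09 ± 0.02 and 0.09 ± 0.06. The second measured probe of Col1a1 read 0.08, opposite to the first on both arrays. Col9a1, a collagen on the surface of cartilage fibrils, read 0.07 ± 0.11.

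Col2a1, the fibrillar collagen of cartilage and of the notochord sheath, gives a measure of how well 2 overlapping probes agree. Both lie on chromosome 15, minus strand, mm8, and share the 40 bases in capitals.
Col2a1 probe 1, chr15:97804108-97804167: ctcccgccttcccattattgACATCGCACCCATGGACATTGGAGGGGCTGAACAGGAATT
Col2a1 probe 2, chr15:97804088-97804147: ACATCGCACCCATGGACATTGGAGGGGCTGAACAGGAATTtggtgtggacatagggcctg

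These probes read 0.04 and 0.06, a difference of 0.02. Levels of the brightest were 11.77 and 12.01 in the heterozygote and 11.81 and 12.05 in the homozygote, so the genotypes overlapped and differed by 0.04 ± 0.00. An overlapping pair of Itgb4, with 50 bases in common, differed by 0.04 and the Lama4 pair by 0.11. The 4 Fn1 probes share no such stretch, so their range of 1.48 is not a like measure. Over the 20 members with at least 2 measured probes, the median range was 0.13 and the widest after Fn1 was 1.14, in Itgb3.

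Nidogens link laminin networks to collagen IV. Nid1 read 0.30 ± 0.19, from levels of 11.95 and 11.89 in the heterozygote to 12.39 and 12.05 in the homozygote, with no overlap but ratios of 0.44 and 0.16. Nid2 read 0.11 ± 0.02. For perlecan, another linker of basement membranes, 1 probe described as mouse perlecan is listed under an accession that the rule did not match to Hspg2. That probe was well above background but was left out of all counts. It was found after its values were seen and read 0.13 and 0.50.

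Integrin alpha chains split in both directions, with 4 of 9 above 0 on both arrays, 3 below and a median of 0.07. The sequences of 2 Itga1 probes with RefSeq transcripts are given, since they differ in what they read. Both lie on chromosome 13, minus strand, mm8, both cross introns, and no base is singled out.
Itga1 probe 1, chr13:116152057-116156195: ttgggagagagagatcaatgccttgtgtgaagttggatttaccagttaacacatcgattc
Itga1 probe 2, chr13:116087435-116089089: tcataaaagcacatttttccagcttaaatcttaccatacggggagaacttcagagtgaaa

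Probe 2, the brightest, read 8.13 and 8.14 in the heterozygote and 8.66 and 8.76 in the homozygote, with no overlap. Its ratio was 0.54 on array 1 and 0.62 on array 2, and 37 of all measured genes had a higher mean. A probe of a clone accession further downstream, at chr13:116079797-116079856, read 7.78 and 7.96 in the heterozygote and 8.65 and 8.46 in the homozygote, or 0.69 ± 0.27. Probe 1 read 7.43 and 7.39 in the heterozygote against 7.41 and 7.40 in the homozygote, a ratio of -0.01 ± 0.01. It was dim, and not well above background in both genotypes on both arrays. The downstream pair thus read above 0 on both arrays and the dim upstream probe read 0. With the scanner software's own log ratio, and with the authors' deposited value table, Itga1 passed 1.5-fold on each array. Under these settings 0.543% and 0.511% of all measured genes did so too.

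Itga4 had 6 probes on chromosome 2, plus strand, of which 1 was measured, at chr2:79131372-79131431. Its level was 9.27 and 8.66 in the heterozygote and 8.43 and 7.84 in the homozygote, so both homozygote samples lay below both heterozygote samples. Ratios were -0.84 and -0.82. Of all measured genes, 284 had a lower mean. The other 5 probes lie upstream, were too dim to count as measured, and read between 0.06 and 0.29. The lower level of Itga4 is thus read by 1 spot per array and 1 probe of 6.

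The remaining alpha chains had smaller ratios. Itga5, the alpha chain of the main fibronectin receptor, read 0.21 ± 0.07, from 10.96 and 11.00 in the heterozygote to 11.13 and 11.27 in the homozygote, with no overlap. Itga8, the chain of a nephronectin and fibronectin receptor, read 0.24 ± 0.13, and its 3 probes lay within 0.22 to 0.24. Itga6, a laminin receptor chain, read 0.21 ± 0.17 by its brightest probe and -0.06 and -0.29 by the others, and -0.05 as the mean of its probes, so its direction depends on the probe.

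Itgav, the alpha chain of the vitronectin receptors, likewise read 0.07 ± 0.20 with its other probes at 0.31 and -0.22. Itga3, a laminin receptor chain, had 3 probes between -0.03 and 0.06. Itga9, which binds tenascin, read -0.15 ± 0.01, but 0.07 with median centring, where the median of all measured genes was 0.12. Itga7, a laminin receptor chain of muscle, read -0.26 ± 0.15, with both homozygote samples (8.52 and 8.44) below both heterozygote samples (8.67 and 8.81). The brightest probes of Itga6, Itga7 and Itgav are listed with no RefSeq transcript.

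Of the 5 beta chains, Itgb8 alone read above 0 on both arrays, Itgb3 and Itgb4 read below, and the median was 0.03. Itgb1, the partner of most alpha chains measured here, was level between the genotypes. Its 10-spot probe read 13.03 and 12.91 in the heterozygote and 13.02 and 12.98 in the homozygote, a ratio of 0.03 ± 0.06 with an SD over spots of 0.04 and 0.02 on the arrays. A second, dimmer Itgb1 probe read 0.29 ± 0.10. Itgb5, a beta partner of the alpha v chain, read 0.07 ± 0.16. Itgb8, another partner of alpha v, read 0.15 ± 0.01 by its 1 measured probe of 3, which is dim and listed with no RefSeq transcript. With median centring Itgb8 read 0.04, where the median of all measured genes was 0.12.

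Itgb3, the beta chain of the platelet receptor and of a vitronectin receptor, had the lowest mean of the set, with arrays that differed widely. It read 10.87 and 11.72 in the heterozygote and 10.44 and 9.93 in the homozygote, so the ratio was -0.43 on array 1 and -1.78 on array 2, or -1.11 ± 0.96. A second probe, at a clone accession, read 0.17 and -0.10. The mean of both was -0.54. Itgb4, the beta chain of hemidesmosomes, read -0.33 ± 0.03, with levels of 10.22 and 9.83 in the heterozygote and 9.87 and 9.53 in the homozygote that overlap between the arrays. Its second probe, which shares 50 bases, read -0.28 ± 0.15.

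Cadherins gave no call. Cdh1, E-cadherin of epithelial cells, read 0.33 ± 0.13, from 15.63 and 16.07 in the heterozygote to 16.05 and 16.30 in the homozygote. These overlap between arrays, and the ratios were 0.42 and 0.23. The probe is printed in 10 spots, and all spots used were above 0, with an SD over spots of 0.05 on each array. The spread over arrays was therefore larger than that over spots. Cdh2, N-cadherin of mesoderm and neural tissue, read 0.15 ± 0.07. Cdh11, a cadherin of mesenchyme, read 0.00 ± 0.11, and its other probes 0.13 and -0.05.

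Set side by side, the medians were 0.15 for the 20 measured matrix genes, 0.05 for the 14 integrins and 0.15 for the 3 cadherins, against -0.02 for all measured genes. On array 1 they were 0.14, 0.04 and 0.20 and on array 2 0.13, 0.01 and 0.11. Of the matrix genes, 14 (70.0%) read above 0 on both arrays and 2 below. Of the integrins, 5 (35.7%) read above and 5 below. The difference between these classes has no test, since each genotype is 1 pool and genes are not replicates. The matrix median exceeded that of all measured genes by 0.14 to 0.20 under every processing tried, and the integrin median by 0.01 to 0.08. Centring each array on its median in place of loess moved the median of all measured genes itself to 0.12, the matrix median to 0.32, the integrin median to 0.18 and the cadherin median to 0.36.

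**Figure D3:**
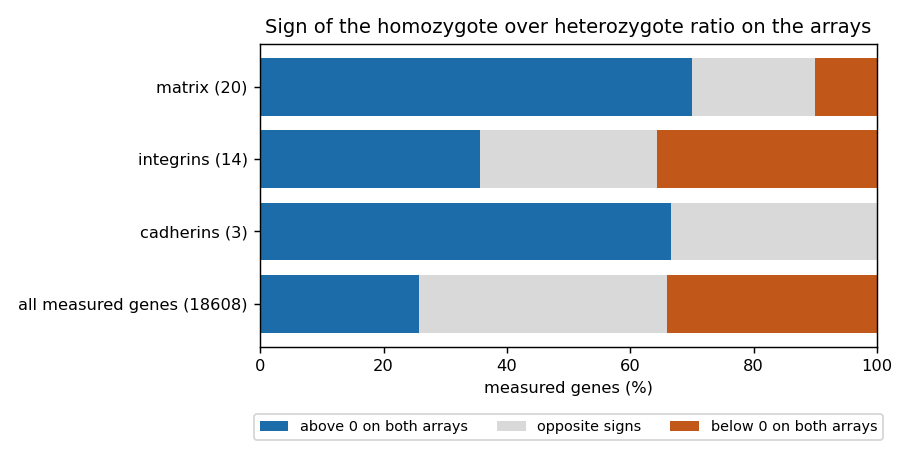
Share of measured genes (horizontal axis, in percent) with a ratio above 0 on both arrays, of opposite signs, or below 0 on both arrays, for matrix genes, integrins, cadherins and all 18608 measured genes. Above 0 on both arrays lie 70.0% of matrix genes and 35.7% of integrins, against 25.7% of all measured genes.

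Brightness differs between these classes, as 19 of the 37 genes, 11 of them matrix genes and 5 integrins, were brighter than the median measured gene. Among those 11 matrix genes, 8 read above 0 on both arrays and 0 below, where 24.5% of all genes brighter than the median lay above and 25.1% below. Their median was 0.15. Of the 5 brighter integrins, 2 read above and 1 below, with a median of 0.07. Itga4, Itga1, Itgb3 and Itgb4 were all dimmer than that median, so the brighter members hold 0 genes past 1.5-fold and 1 past 1.2-fold, Fn1. Of all genes that bright, 0.634% were called lower and 0.0215% higher at 1.5-fold, and 2.74% and 1.44% at 1.2-fold.

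Between the arrays, r was 0.69 across the ratios of the 37 genes and 0.50 across all measured genes, as a description, since genes of 1 array share its dyes and its normalization. Among genes brighter than the median, r was 0.52 across the 19 members and 0.13 across all. The median SD over the arrays was 0.07 for the members and 0.12 for all measured genes, and 26 of the 37 means were larger than their SD. With array 2 left unturned, so that a ratio follows the dye, 0 members passed 1.2-fold. No share of all measured genes stands beside this count, so it allows no comparison. In 12 members both homozygote samples lay above both heterozygote samples, and in 4 both lay below, against 10.7% and 16.6% of all measured genes.

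Probes of 1 gene often differed in sign. Of 20 members with at least 2 measured probes, 9 had means of both signs, and in 5 of these (Fn1, Lama1, Col1a1, Itga6 and Itgav) a pair of probes was opposed on both arrays. The median range over the probes of a gene was 0.13. The other 17 measured genes rest on 1 probe. Of the 56 member probes listed with a RefSeq transcript, 33 read above 0 on both arrays and 7 below, with a median of 0.12. Of the 10 without one, 3 read above and 5 below, with a median of -0.09. Over all measured probes these shares were 32.1% above and 27.0% below with a RefSeq transcript, and 25.4% and 42.1% without, and the latter were also dimmer, with a median log2 brightness of 9.01 against 11.5.

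**Figure D4:**
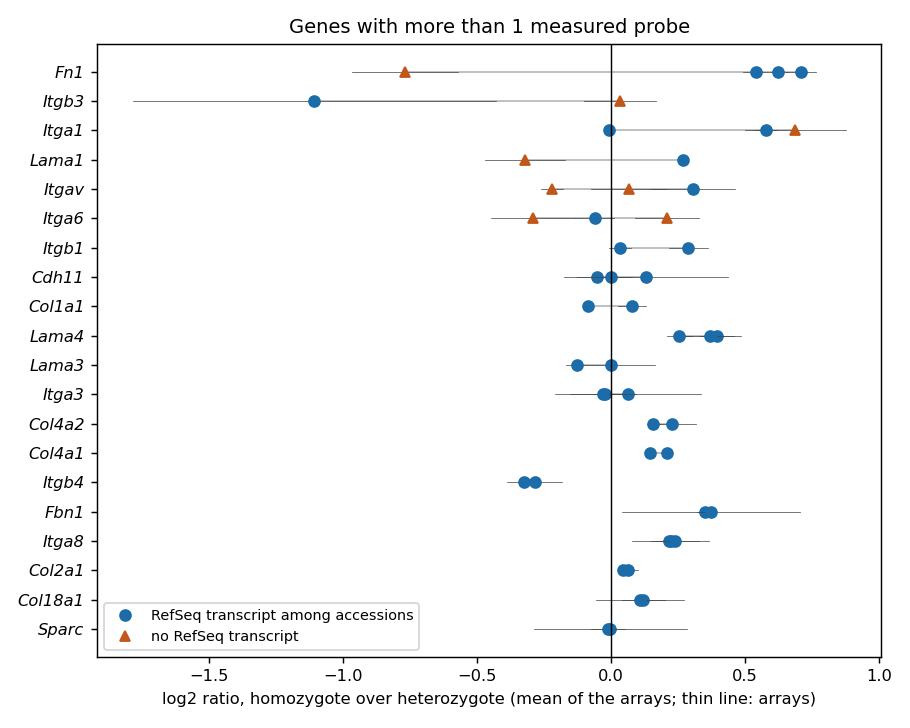
Mean log2 ratio of homozygote over heterozygote (horizontal axis) of each measured probe for the 20 genes with more than 1, with blue circles for probes with a RefSeq transcript, orange triangles for probes without one, and thin lines to the values of the 2 arrays. Fn1 has 3 circles at 0.54 to 0.71 and a triangle at -0.77, and the range over probes is widest in Fn1 and Itgb3.

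Of the other genes of the same system, 0 were called at 1.5-fold, against 0.0591% higher and 2.35% lower of all measured genes. For the counts that follow, the shares of all measured genes were 2.19% higher and 8.27% lower at 1.2-fold, and 25.7% above and 34.0% below 0 on both arrays. Of 39 measured other matrix proteins, 3 passed 1.2-fold higher and 2 lower, with a median of 0.03, 13 above 0 on both arrays and 10 below. The higher ones were Efemp1, a fibulin (0.49 ± 0.07), Col6a3, a chain of microfibrillar collagen VI (0.39 ± 0.06), and Col5a2, a chain of collagen V (0.31 ± 0.07). The lower ones were Lum, the proteoglycan lumican (-0.76 ± 0.55), and Hapln1, which links hyaluronan to proteoglycans (-0.32 ± 0.05). Of 15 measured other integrin chains and matrix receptors, 0 passed and the median was -0.09. Farthest from 0 were the collagen receptor kinases Ddr2 (-0.36 ± 0.27) and Ddr1 (0.28 ± 0.05), on opposite sides.

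The 20 proteins of integrin adhesions had a median of 0.11, with 10 above 0 on both arrays and 3 below. The median was 0.03 on array 1 and 0.16 on array 2. Vcl, the actin linker vinculin, was the 1 past 1.2-fold, at 0.37 ± 0.01. Of 12 other cadherins, catenins and related proteins, Cdh6 was the 1 higher (0.31 ± 0.06), 6 read above 0 and 1 below, and the median was 0.05. Of 23 enzymes and inhibitors of matrix processing, 0 passed and the median was -0.02, with the lysyl hydroxylase Plod2 (-0.31 ± 0.30) and the collagen chaperone Serpinh1 (-0.23 ± 0.28) farthest from 0. Of 10 factors and markers of the epithelial to mesenchymal transition, 0 passed. Twist1 (-0.18 ± 0.10) and Snai2 (-0.10 ± 0.39) lay farthest from 0, and the median was -0.03.

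Cells outside the embryo proper make much of the basement membrane at this stage, so the levels of their markers are given. For parietal endoderm, which lays down Reichert's membrane, 10 markers were read, all measured. Among them Snai1 is also on the list of transition factors above, so the list is not particular to this tissue. Of the 10 markers, 1 read above 0 on both arrays and 5 below, and the list had a median of -0.10. The summed intensity of the list was 84563 to 96844 in the heterozygote and 83832 to 84516 in the homozygote. Visceral endoderm markers, 10 of 10 measured, had a median of 0.02, with sums of 288263 to 314384 in the heterozygote and 275159 to 294028 in the homozygote. In neither list was the summed level of the homozygote above that of the heterozygote on both arrays. Without the brightest marker of each list, the homozygote sum was lower on array 1 and higher on array 2. For parietal endoderm without Gata6, the sums were 76449 and 62520 in the heterozygote and 66854 and 66999 in the homozygote. For visceral endoderm without Apoe, they were 201941 and 169490 in the heterozygote and 188163 and 180639 in the homozygote. Decidua and trophoblast markers had 6 of 10 measured and a median of 0.19, with 5 above 0 and 1 below, and Prl8a2 (1.11 ± 0.03) was called higher, while Prl3d1 (0.36 ± 0.09) passed 1.2-fold. Their sums were 11227 to 12117 in the heterozygote and 9646 to 12250 in the homozygote, most of it from Hand1, the 1 marker below 0 (-0.33 ± 0.15). Without Hand1 the sums were 3707 and 2616 in the heterozygote and 5050 and 3313 in the homozygote on arrays 1 and 2, higher in the homozygote on each array. Of this list, Prl2c2, Prl3c1, Psx1 and Tpbpa were not measured. Their part in the matrix values was not tested.

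Blood and node markers read mostly below 0. Of 8 measured blood markers out of 10, 6 read below 0 and 1 above. The 3 called lower, against 2.35% of all measured genes, were the globins Hbb-bt, Hba-a1 and Hba-a2. The sum was 13001 to 17449 in the heterozygote against 6856 to 8798 in the homozygote. Without Hbb-bt, the brightest, it was 6751 to 9140 against 4340 to 5664. The measured markers other than globins read 0.21 ± 0.11 (Gata1), -0.07 ± 0.12 (Klf1) and -0.09 ± 0.01 (Alas2). Endothelial markers, 5 of 8 measured, had a median of -0.10 and sums of 23797 to 32364 and 23141 to 25641. Without Egfl7, the brightest, the endothelial sums on arrays 1 and 2 were 3837 and 3081 in the heterozygote and 3130 and 2698 in the homozygote. Alpha 4 and beta 3 integrins are also made by blood and vascular cells, and the part of these cells in the lower Itga4 and Itgb3 was not tested. The node and notochord list, 14 of 14 measured, had a median of -0.18, with 9 below 0 on both arrays and 3 above. At 1.2-fold, 7 were lower (Gsc, Foxd4, Foxj1, Lefty1, Shh, Nog and Tekt1) and 1 higher (T), against 8.27% and 2.19% of all measured genes. The summed levels of the list, 203448 to 222888 in the heterozygote and 216743 to 217927 in the homozygote, overlap. Without Foxa2, the brightest, the sums on arrays 1 and 2 were 158818 and 158499 in the heterozygote and 157189 and 162628 in the homozygote. Mesoderm markers (10 of 10, median 0.04) and ectoderm markers (9 of 10, median -0.10) held sums of 321944 to 369782 and 170710 to 184598 in the heterozygote, and of 323084 to 370363 and 162443 to 162468 in the homozygote. Without Tbx6, the mesoderm sums on arrays 1 and 2 were 244495 and 267162 in the heterozygote and 236298 and 270840 in the homozygote. Without Krt8, the ectoderm sums were 35531 and 29077 in the heterozygote and 27164 and 27005 in the homozygote, lower on each array. The part of the node, mesoderm and ectoderm cells in the matrix values was not tested either.

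Each array had 43379 gene spots, none saturated, of which 64.0% to 81.5% per dye were well above background. Spiked-in control RNAs gave observed over expected slopes of 0.809 and 0.705, so ratios were compressed on both arrays. Slide and scan day differed between the arrays, and each array held both genotypes. The targeted gene was not analysed here and gives no check on which pool is which.

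**Figure D5:**
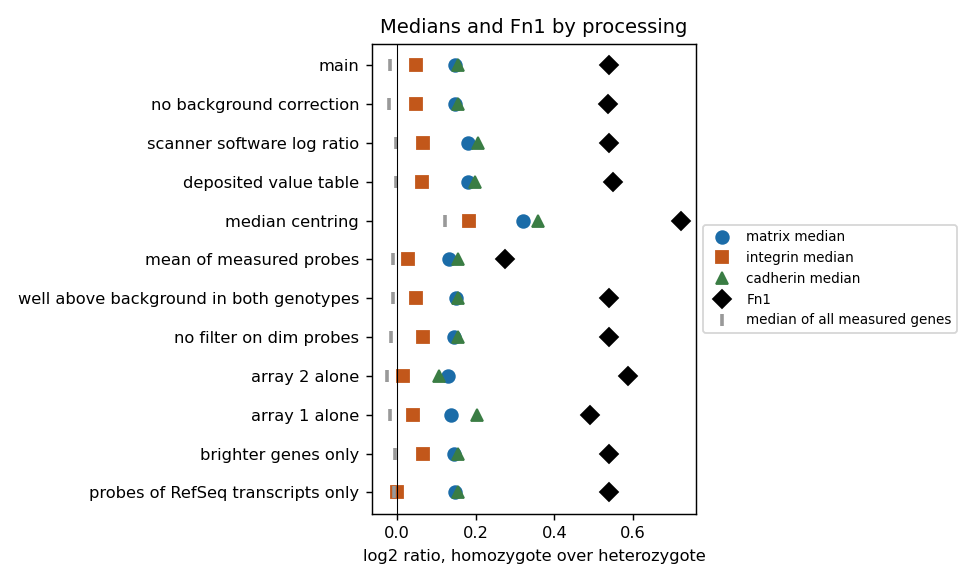
Median log2 ratio of matrix genes (circles), integrins (squares), cadherins (triangles) and all measured genes (bars), and the value of Fn1 (diamonds), on the horizontal axis, under each processing on the vertical axis. The matrix median stays right of the bar for all measured genes throughout, and Fn1 ranges from 0.28 with the mean of measured probes to 0.72 with median centring.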

How the data were processed

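Each sample shares its array with a sample of the other genotype, and the scanner files of both were identical, so each array was read once. Spots were read by the authors with Agilent Feature Extraction 9.5.3.1, per the file headers and the submitters' processing notes, which gives foreground, background and processed intensity per spot, a log10 ratio of Cy5 over Cy3, and flags (unit other) for outliers and for spots well above background. The authors also deposited a value table of processed intensity, scaled by an unstated factor per array. Normexp background correction (offset 50) and loess within each array, with controls at weight 0, were run in limma 3.58.1 (R 4.3.3) on mean foreground and median background intensities. Outlier spots (179 and 165) were dropped, array 2 was turned, and spots of 1 probe were averaged. A probe with several spots was well above background if most of them were. Levels are loess and Aquantile values. Names came from a RefSeq table (assembly GRCm38.p6): 33113 probes matched and 8061 stayed under their listed names. Summaries and plots used Python 3.11.15, numpy 2.4.6, pandas 2.3.3 and matplotlib 3.10.9, and the normalization was tested on simulated data.

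All 40 members are named, with every probe of those whose probes disagree. Of each pathway list, genes past 1.2-fold on each array are named, or else the pair farthest from 0. Members and lists were chosen with earlier results of these data known. Alternatives left out background correction, took the scanner software's log ratio or the value table, centred on the median, averaged probes, changed the filter, or left out an array. The limits to brighter genes and to probes of RefSeq transcripts were added after seeing the data. The number of arrays limits the precision.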

Additional observations from a re-analysis of the deposited data

How the results depend on the processing

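No paired analysis was possible because 1 pool per genotype leaves no test to which a block could be added; the ratios themselves pair the genotypes within each array. With median centring the matrix, integrin and cadherin medians and Fn1 read 0.32, 0.18, 0.36 and 0.72, while the median of all measured genes moved to 0.12. The 3 group medians exceeded it by 0.20, 0.06 and 0.24, against 0.17, 0.07 and 0.17 with loess. The count past 1.2-fold lower was 1, against 7.60% of all measured genes. With the mean of probes the matrix and integrin medians and Fn1 read 0.13, 0.027 and 0.28, and that count was again 1. The scanner software's log ratio and the value table each gave 1 member called higher, Itga1, and a matrix median of 0.18, where 0.543% and 0.511% of all genes were called higher. Among brighter genes, a limit added once the data had been seen, 0 were called lower, 1 and 0 passed 1.2-fold higher and lower, and the integrin median was 0.067. With probes of RefSeq transcripts only, also added then, the integrin median was 0.0002. On single arrays, 1 to 2 members were called higher, 1 to 2 lower, 5 to 8 passed 1.2-fold higher (0.607% to 0.672%, 3.46% to 5.08% and 8.01% to 11.1% of all genes), and the medians were 0.13 to 0.14 (matrix) and 0.015 to 0.039 (integrins). Array 1 alone called Fbn1 higher, and array 2 alone called Fn1 and Itga1 higher and Itgb3 lower beside Itga4. The cause of these shifts was not tested. Median centring moved the median of all measured genes as well. Limits to brighter genes or RefSeq probes leave fewer genes to count. Under the 9 settings other than single arrays, 59 values of single members moved by more than their SD over the arrays, 253 did not, and 0 called values reversed. Of the 37 genes, 19 had a value under all 9 settings, and 15 of these kept their sign. Counting only the settings in which a gene had a value, 30 of the 37 kept it; Sparc, Lama1, Col1a1, Itga3, Itga6, Itga9 and Cdh11 did not. Signs were taken against 0, also under median centring, where the median of all measured genes was 0.12. The values are limited by 1 pool per genotype, compressed ratios and, for Itga1 and Itga4, dim probes.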
